A study of Mus musculus with 4 samples.

Results

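The forkhead and T-box genes are 2 families of transcription factor genes, taken here as every row whose symbol is Fox followed by a letter and a number or Tbx followed by a number. The rule found 57 genes, 44 forkhead and 13 T-box, among the 24346 gene symbols of the mouse inner ear dataset. The dataset holds 4 RNA sequencing libraries, 2 from primary cultures of vestibular cells (replicates 1 and 2) and 2 from primary cultures of cochlear cells (replicates 1 and 2). The vestibular organ serves balance, and the cochlea hearing. All 4 come from mouse inner ear with no treatment named, while the sources used here give no strain, age, culture time or pooling of animals. The labels do not say that replicates are separate cultures or animals, so p-values measure only the spread between these samples, which may be technical.

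Forkhead proteins bind DNA through a winged-helix domain, and T-box proteins through the domain that gives the family its name. In the inner ear, Tbx2 acts in the otic epithelium, Tbx1 acts in the otic vesicle and in the mesenchyme around it, and Tbx18 acts in that mesenchyme and in the fibrocytes that derive from it. Other members are known from head mesenchyme and meninges (Foxc1, Foxc2, Foxd1, Foxf2), from insulin signalling (the FoxO genes), from dividing cells (Foxm1) and from cells with motile cilia (Foxj1).

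Of the 57 genes, 26 had a mean of at least 1 FPKM over the 4 libraries and were tested (21 forkhead and 5 T-box). FPKM is a fragment count divided by transcript length and library size, so levels can be compared between genes. Where values are given for the vestibular or the cochlear pair, replicate 1 comes first. A further 20 genes had a value above 0 but a mean under 1, and 11 were listed at 0 in every library. Rpl26, a ribosomal gene that every cell uses, is at 0 throughout as well, and a 0 is therefore not read as absence. A gene that passed the filter only through the group where it is high had to differ, so counts over the tested genes are descriptions. The 57 genes summed to 333 and 464 FPKM in the vestibular pair, and to 315 and 322 FPKM in the cochlear pair.

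Among the tested genes, Tbx15, Foxc2, Foxd1, Foxp2 and Foxp1 lay above the cochlear values in both vestibular libraries, and Tbx2 lay below them. In limma 7 of 26 were at an unadjusted p under 0.05, these among them, against a background of 18.2% of the 13200 genes tested. The 5 with higher vestibular values compare with a background of 7.61%, and the 2 with higher cochlear values with 10.6%. None of the 26 passed limma with Benjamini-Hochberg adjustment over all genes, where the background was 0.0303% (4 genes). With 2 samples against 2, an exact 2-sided permutation test cannot go below p = 0.333 for any gene. The groups did not overlap in 14 of the 26 genes, 8 with higher vestibular and 6 with higher cochlear values. That share is close to the background of 55.3% (26.9% with higher vestibular and 28.4% with higher cochlear values). The median log2 difference of the 26 genes, vestibular minus cochlear, was -0.0025, beside 0.011 over all genes tested.

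**Figure D1:**
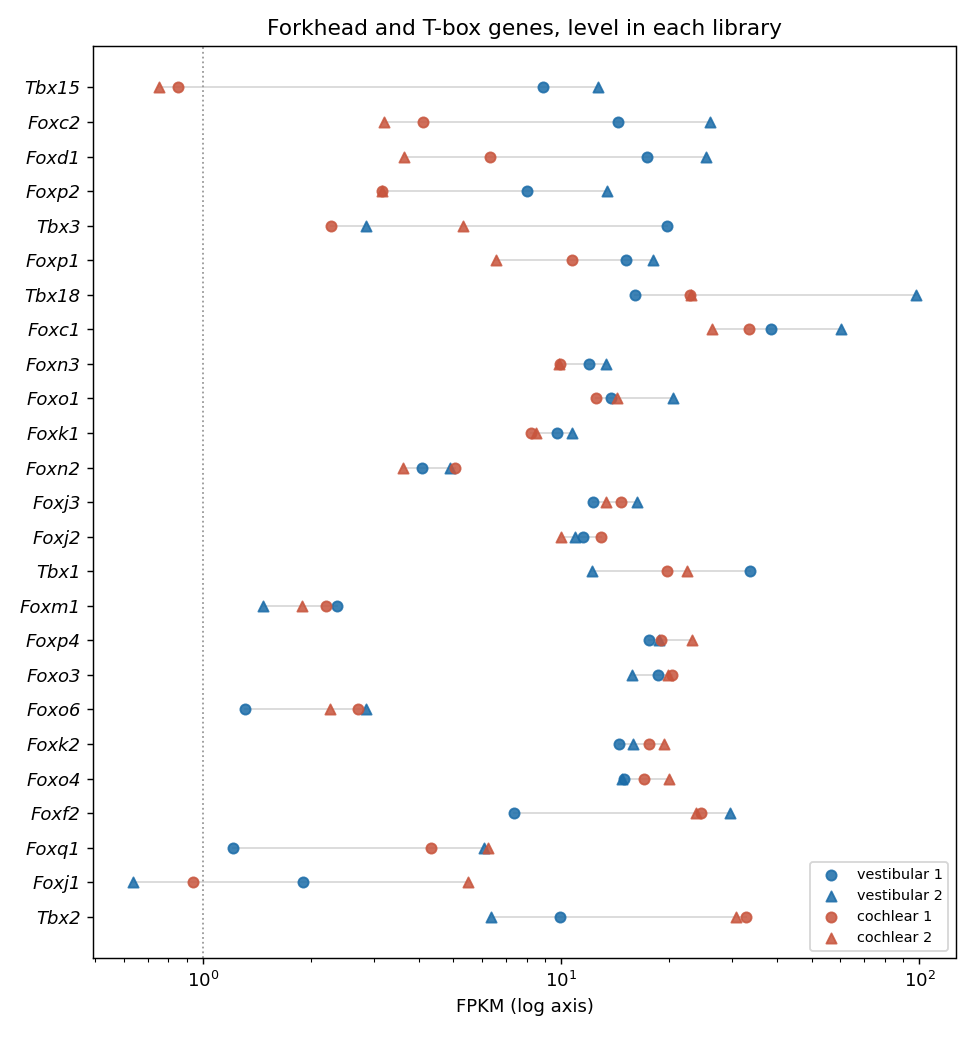
FPKM of 25 tested genes on a log axis in each library, ordered by the log2 difference between groups, with vestibular libraries in blue and cochlear libraries in red (circles for replicate 1, triangles for replicate 2). The upper rows (Tbx15, Foxc2, Foxd1, Foxp2) have both vestibular points to the right, Tbx2 at the bottom has both cochlear points to the right, and single libraries lie far out for Tbx18, Tbx3 and Foxf2.

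The cultures held several cell types, and some libraries stood apart from the other of their group. FPKM totals ran from 479380 to 519122 and the number of genes with at least 1 FPKM from 12644 to 13094; the number of fragments is unknown. Summed over 12 epithelial marker genes, the cochlear pair had 2030 and 2427 FPKM, vestibular library 1 had 1045 and vestibular library 2 had 113. A list of 12 fibroblast and collagen genes summed to 6151 and 12413 FPKM in the vestibular pair and 3107 and 2653 in the cochlear pair. Macrophage markers (10 genes) summed to between 6397 and 8398 FPKM in 3 libraries and to 23.6 in cochlear library 2. Melanocyte markers (6 genes) summed to 227 FPKM in vestibular library 2 and to at most 9.94 elsewhere. Of 10 markers of hair cells, the sensory cells of both organs, 3 were tested: the myosin genes Myo6, at 9.66 to 24.5 FPKM, and Myo7a, at 5.81 to 13.4, and the actin bundling gene Espn, at 4.53 to 17.2. The hair cell regulator Atoh1 was listed at 0 in 3 libraries and at 0.1001 FPKM in vestibular library 2, and Pou4f3 reached 1.005 FPKM at most. In bulk samples, fewer cells of a type and less RNA per cell cannot be told apart.

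**Figure D2:**
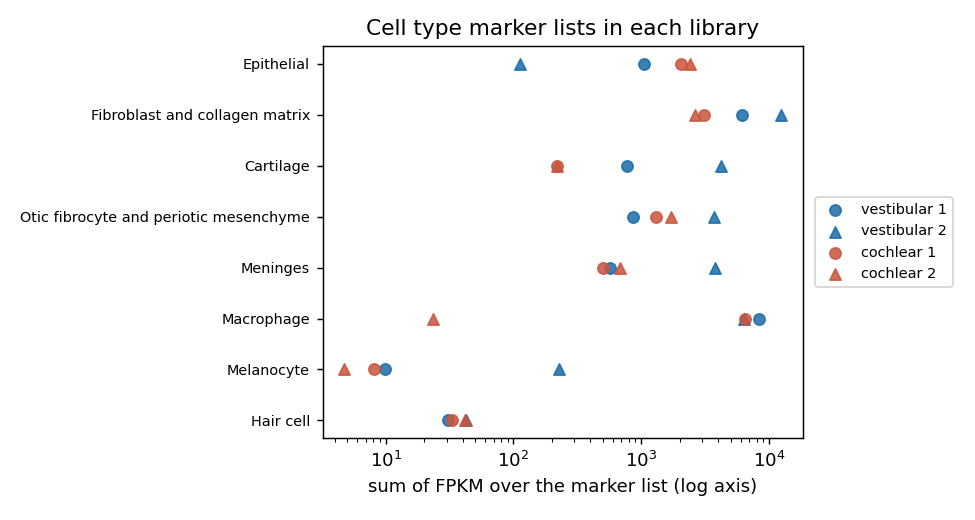
Summed FPKM of 8 cell type marker lists in each library, on a log axis, with vestibular libraries in blue and cochlear libraries in red (circles for replicate 1, triangles for replicate 2). Vestibular library 2 is the lowest for epithelial markers (113) and the highest for cartilage, fibrocyte and melanocyte markers. Its meningeal sum is the highest only with Ptgds included, although Gjb2, Gjb6, Zic1, Zic4 and Slc22a2 were also highest there. Cochlear library 2 is low for macrophage markers (23.6).

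For the mesenchymal forkhead genes Foxc1 and Foxd1 the sequence just before the gene is shown. A RefSeq table (GRCm38.p6) held upstream sequence for 37 of the 57 genes, and these are shown because their values did not overlap between groups and because their windows are almost free of annotated exons. The sequences end where the first annotated exon begins, read 5′ to 3′ on the plus strand, and capitals mark a GC box (GGGCGG on either strand).
Foxc1, chr13:31806396-31806632: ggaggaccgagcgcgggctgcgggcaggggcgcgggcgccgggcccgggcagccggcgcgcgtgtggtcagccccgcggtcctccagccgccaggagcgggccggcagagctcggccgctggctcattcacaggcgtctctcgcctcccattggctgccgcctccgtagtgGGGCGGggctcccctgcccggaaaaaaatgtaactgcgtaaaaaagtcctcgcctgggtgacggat
Foxd1, chr13:98353995-98354241: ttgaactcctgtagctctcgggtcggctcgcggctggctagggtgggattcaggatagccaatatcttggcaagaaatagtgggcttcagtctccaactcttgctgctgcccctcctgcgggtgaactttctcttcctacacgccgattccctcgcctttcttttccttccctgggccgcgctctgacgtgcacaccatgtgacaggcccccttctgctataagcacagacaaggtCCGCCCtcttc
The Foxc1 sequence is 237 bases with 72.6% G and C, and the Foxd1 sequence 247 bases with 57.1%. Each holds 1 GC box, and in neither were the letters TAAACA (the core that forkhead proteins bind) or GGTGTGA (bound by T-box proteins) found on either strand. Over windows of 250 bases before the start, a GC box stood in 29 of 45 windows of the 37 genes (64.4%) and in 33.0% of all 32536 windows. TAAACA stood in 5 of the 45 (11.1%) against 12.02% of all windows, and GGTGTGA in 0 of 45 against 3.33%. A match is a string of letters and not a measured binding site.

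Foxc1 had the highest FPKM of the forkhead genes in every library. This gene, which acts in head mesenchyme and the meninges, stood at 38.5 and 60.3 FPKM in the vestibular pair and at 33.5 and 26.4 in the cochlear pair. The groups did not overlap, but in FPKM the vestibular libraries lay farther apart than the group means. The log2 difference was 0.68 (SE 0.28, limma adjusted p = 0.314). It ran from 0.36 without vestibular replicate 2 to 0.995 without vestibular replicate 1. Its close relative Foxc2, known from lymphatic vessels and skeletal mesenchyme, stood at 14.4 and 26.1 FPKM in the vestibular pair and at 4.11 and 3.19 in the cochlear pair. The mean Foxc2 level was thus 5.55 times higher in the vestibular libraries (20.2 ± 8.26 against 3.65 ± 0.649 FPKM, SD, n = 2 each), a log2 difference of 2.14 (SE 0.34, limma adjusted p = 0.134). The level of Foxc1 was 2.67 and 2.31 times that of Foxc2 in the vestibular libraries, and 8.16 and 8.28 times in the cochlear libraries, so this ratio differed between groups far more than between replicates.

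Foxd1, a gene of the stroma of the kidney and of facial and meningeal mesenchyme, followed the same order. It stood at 17.3 and 25.4 FPKM in the vestibular pair, and at 6.31 and 3.64 in the cochlear pair. The mean was 21.4 ± 5.68 against 4.98 ± 1.89 FPKM (SD, n = 2 each), 4.29 times higher, with a log2 difference of 1.92 (SE 0.33, limma adjusted p = 0.146). Foxp2, which is known from brain circuits for vocal learning and also acts in mesenchyme of the lung and limb, had 8.02 and 13.4 FPKM in the vestibular libraries. In the cochlear libraries it had 3.15 and 3.17 FPKM, nearly the same value. Its log2 difference was 1.46 (SE 0.28, limma adjusted p = 0.168). Foxl1, a gene of the mesenchyme under gut epithelium, was not tested for its low mean. It had 2.09 and 0.718 FPKM in the vestibular pair and 0.302 and 0.0328 in the cochlear pair. Foxs1, a gene of pericytes, had 0.380 and 0.0854 FPKM in the vestibular libraries and was listed at 0 in the cochlear ones.

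Foxf2 did not follow these genes. This gene of pericytes and of mesenchyme of the palate and gut had 7.38 FPKM in vestibular library 1 and 29.7 in vestibular library 2, against 24.5 and 23.8 in the cochlear libraries. The 2 cochlear values lay between the vestibular ones, and the log2 difference of -0.65 (SE 0.69, limma adjusted p = 0.637) became 0.29 without vestibular replicate 1. Foxf1, a close relative, stood at no more than 1.10 FPKM in any library, and Foxd2 at no more than 0.689. Fibroblast and collagen markers moved with Foxc2, Foxd1 and Foxp2. All 12 were tested, and 11 had both vestibular values above both cochlear values, against a background of 26.9% of all genes tested. In limma 7 had an unadjusted p under 0.05, all with higher vestibular values (background 7.61%), and 0 passed the adjustment. The part of these cells in the differences was not tested. Pericyte and smooth muscle markers, given beside Foxf2 and Foxs1, were tested in 4 of 8 cases. They summed to 254 and 415 FPKM in the vestibular pair and 139 and 116 in the cochlear pair, mostly through Acta2 and Tagln. The groups overlapped for the other tested genes, Rgs5 and Notch3. Kcnj8 did not exceed 0.182 FPKM, Abcc9 0.424 and Cspg4 1.44, so the sum is not read as a pericyte level.

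**Figure D3:**
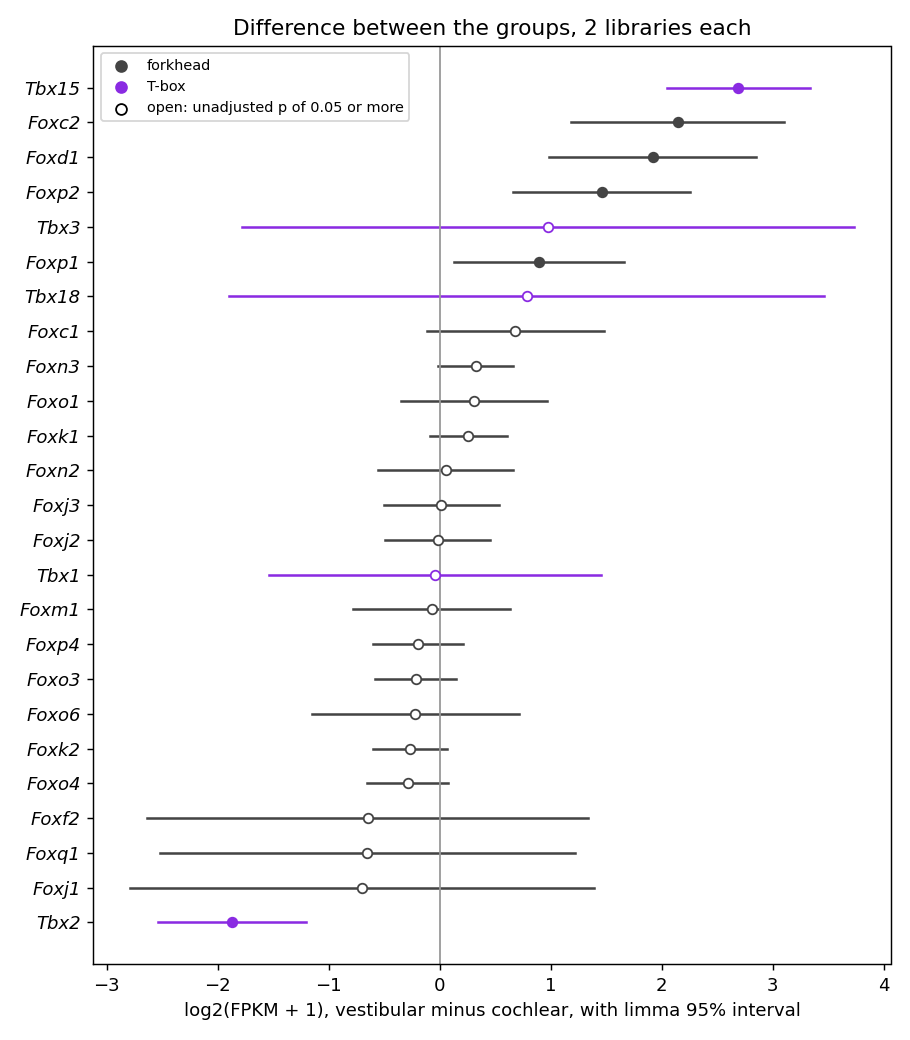
Log2 difference (vestibular minus cochlear, log2(FPKM + 1)) of 25 tested genes with limma's 95% intervals, forkhead genes in grey and T-box genes in purple. Filled points (6 genes) have an unadjusted p under 0.05, none passes the adjustment over all genes, and the widest intervals belong to Tbx3, Tbx18, Foxj1, Foxf2 and Foxq1.

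Forkhead genes of epithelium and endoderm were low or not separated. Foxq1, a gene of epithelia and the hair shaft, had 1.21 FPKM in vestibular library 1, 6.09 in vestibular library 2, and 4.34 and 6.25 in the cochlear libraries. Its log2 difference of -0.65 (SE 0.65) became 0.19 without vestibular replicate 1. Foxa1, a pioneer factor of endodermal epithelium, had 0.422 and 1.20 FPKM in the vestibular pair and 0.155 and 0.242 in the cochlear pair. Foxa2 was listed at 0 in all 4, and Foxe1 reached 0.115 FPKM in vestibular library 1 alone.

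Foxi1, the regulator of proton-secreting cells in the endolymphatic sac and kidney, was near 0: it had 0.132 FPKM in vestibular library 2, 0.0430 in cochlear library 1, and was listed at 0 in the other two. Foxi2 and Foxi3 were listed at 0 in all 4 libraries. Of 10 genes of Foxi1 dependent cells, 5 were tested and 0 passed. In limma 2 had an unadjusted p under 0.05, both with higher cochlear values (background 10.6%). By sign, 3 of the 5 had a log2 difference above 0 (vestibular higher) and 2 below it, with a median of 0.60. The anion exchanger gene Slc26a4 (pendrin) stood at 60.5 and 46.3 FPKM in the cochlear pair and 1.93 and 0.884 in the vestibular pair (limma adjusted p = 0.0665). The carbonic anhydrase gene Car2 stood at 51.0 and 94.5 against 21.6 and 27.7 FPKM. The proton pump subunit genes Atp6v0a4 and Atp6v1c2 went the other way. Atp6v0a4 stood at 1.56 and 13.3 FPKM in the vestibular pair and 0.458 and 0.122 in the cochlear pair. Atp6v1c2 stood at 6.11 and 6.18 against 5.45 and 2.47 FPKM. A further subunit gene, Atp6v1b1, did not exceed 0.210 FPKM. Foxi1 was at 0.0430 FPKM or listed at 0 in the cochlear libraries, where Slc26a4 was high. A 0 is not read as absence here, and a link between these genes was not tested.

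Foxj1, the regulator of motile cilia, had its highest value in cochlear library 2. It stood at 1.90 and 0.636 FPKM in the vestibular pair, and at 0.935 and 5.48 in the cochlear pair. The groups overlapped, and the log2 difference of -0.70 (SE 0.73) became 0.17 without cochlear replicate 2. Of 21 motile cilia genes, 8 were tested, with a median log2 difference of 0.27. Of these, 0 passed and 1 had an unadjusted p under 0.05 in limma (background 18.2% of all genes tested). That gene, the radial spoke gene Rsph9, stood at 12.4 and 13.1 FPKM in the vestibular pair and 9.05 and 8.36 in the cochlear pair. The axonemal dynein gene Dnah9 was highest where Foxj1 was, with 8.02 FPKM in cochlear library 2, 1.42 in cochlear library 1, and 0.123 and 0.167 in the vestibular libraries. None of the other tested genes of this list had its highest value in cochlear library 2. Mcidas and Sntn, genes of multiciliated cells, were listed at 0 in all 4.

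The FoxO genes, which insulin and growth factor signalling keeps out of the nucleus, had overlapping or closely spaced groups. Foxo3 stood at 18.6 and 15.8 FPKM in the vestibular pair and at 20.3 and 19.9 in the cochlear pair, and Foxo4 at 15.0 and 14.8 against 17.0 and 19.997. Both had higher values in each cochlear library, but the log2 differences were -0.22 (SE 0.13) and -0.29 (SE 0.13). Foxo1 stood at 13.8 and 20.5 against 12.5 and 14.3 FPKM, with overlapping groups and a log2 difference of 0.31 that ran from 0.040 without vestibular replicate 2 to 0.58 without vestibular replicate 1. Foxo6, the member known from brain, was the lowest, at 1.31 and 2.84 against 2.71 and 2.26 FPKM. The 4 genes summed to between 48.7 and 56.5 FPKM in the 4 libraries.

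Genes that act on FoxO proteins or are known as their targets were also compared. Of 12 tested genes for kinases that inhibit FoxO proteins and for the 14-3-3 proteins that hold them, 2 had an unadjusted p under 0.05, both with higher cochlear values, and 0 passed. Sgk1, among these, had 70.7 and 70.7 FPKM in the cochlear pair and 32.2 and 26.3 in the vestibular pair. Akt1 had 96.5 and 98.0 FPKM in the vestibular pair and 84.0 and 77.6 in the cochlear pair. Of 16 tested target genes, 3 had an unadjusted p under 0.05 with higher cochlear and 1 with higher vestibular values, and 0 passed (median log2 difference -0.27). The background over all genes tested was 10.6% with higher cochlear and 7.61% with higher vestibular values. The 3 were the repressor gene Bcl6 (33.2 and 37.7 against 17.7 and 15.8 FPKM), the cyclin gene Ccng2 (42.1 and 38.1 against 24.05 and 21.2) and the cell cycle inhibitor gene Cdkn1b (48.1 and 43.6 against 31.1 and 29.6). Catalase (Cat) went the other way, with 111 and 117 FPKM in the vestibular pair and 60.1 and 49.5 in the cochlear pair.

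The broadly expressed forkhead genes varied little across the 4 libraries. Foxj2, Foxj3, Foxk1, Foxk2, Foxn2, Foxn3, Foxp1 and Foxp4 summed to between 94.3 and 109 FPKM in each library. Except for Foxp1, the highest library of each of these genes stood at 1.29 to 1.396 times its lowest. Foxk1 and Foxk2, which regulate autophagy and glycolysis genes, differed in opposite directions: Foxk1 had 9.71 and 10.7 FPKM in the vestibular pair and 8.24 and 8.52 in the cochlear pair, and Foxk2 had 14.5 and 15.8 against 17.6 and 19.3. The log2 differences were 0.26 (SE 0.12) and -0.27 (SE 0.12), and their limma adjusted p values were 0.358 and 0.336. Foxn3, a checkpoint gene, had 11.9 and 13.3 against 9.91 and 9.87 FPKM. Foxp4, a relative of Foxp1 and Foxp2, had 17.6 and 18.8 against 19.0 and 23.1 FPKM.

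Foxp1 was the exception in this group. It encodes a repressor that acts in many tissues, including B cells and heart, and stood at 15.2 and 17.99 FPKM in the vestibular pair. In the cochlear pair it stood at 10.7 and 6.58 FPKM, so that the groups did not overlap. The log2 difference was 0.90 (SE 0.27, limma adjusted p = 0.237), and it ran from 0.58 without cochlear replicate 2 to 1.21 without cochlear replicate 1. Macrophage markers are low in cochlear library 2, the lowest for Foxp1, and their part in this value was not tested. Without that library the unadjusted p of Foxp1 in limma was 0.0665. Among the 3 related genes Foxp1, Foxp2 and Foxp4, Foxp1 and Foxp2 thus had higher vestibular values, and Foxp4 did not.

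Foxm1, which drives genes of cell division, stood at 2.37 and 1.47 FPKM in the vestibular pair and 2.198 and 1.89 in the cochlear pair. The groups overlapped and the log2 difference was -0.075 (SE 0.25). The 13 tested genes known as its mitotic targets had a median log2 difference of 0.10. Of these, 0 passed and 1 had an unadjusted p under 0.05 in limma (background 18.2% of all genes tested). That gene was the phosphatase gene Cdc25b, at 6.25 and 9.08 FPKM in the vestibular pair and 4.73 and 3.61 in the cochlear pair. The kinase gene Aurkb was at 4.07 and 2.0996 against 2.01 and 1.80, and the proliferation marker Mki67 between 2.73 and 4.59 FPKM in all 4. Foxm1, Aurkb and Mki67 all had their highest value in vestibular library 1. Nek2, a further kinase gene, was higher in the cochlear pair, at 1.82 and 2.69 FPKM against 1.30 and 1.13. Nek2 and Cdc20 were highest in cochlear library 2, and Cdc25b in vestibular library 2.

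Tbx15, a gene of skeletal and dermal mesenchyme, showed the largest difference of the 26 genes. It stood at 8.88 and 12.6 FPKM in the vestibular pair and at 0.852 and 0.752 in the cochlear pair. The means of 10.8 ± 2.66 and 0.802 ± 0.0707 FPKM (SD, n = 2 each) differ 13.4-fold. Both cochlear values were under 1 FPKM, so Tbx15 passed the filter only through the vestibular libraries. Its rank and fold are therefore descriptions. The log2 difference was 2.69 (SE 0.23, limma adjusted p = 0.0808, and 0.0799 to 0.496 over the 10 alternative analyses). It stayed between 2.46 and 2.92 with any library left out. Fibroblast, collagen and cartilage markers mostly moved with Tbx15. Both vestibular values lay above both cochlear values in 11 of 12 fibroblast and collagen genes and 5 of the 6 tested cartilage genes. The otic fibrocyte and periotic mesenchyme list was mixed. Of its 9 genes, 3 had this order and 2 the opposite one. The backgrounds over all genes tested were 26.9% and 28.4%, and the part of these cells was not tested. Tbx15 occupies 99240381 to 99354259 of chromosome 3, plus strand (GRCm38, GENCODE M21).

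Tbx18, a close relative of Tbx15 and a gene needed for otic fibrocytes, behaved differently. It stood at 16.1 FPKM in vestibular library 1, 98.0 in vestibular library 2, and 22.9 and 23.0 in the cochlear libraries. Vestibular library 2 was far above the other 3, and vestibular library 1 was the lowest. The log2 difference of 0.78 (SE 0.94, limma adjusted p = 0.674) turned to -0.49 without vestibular replicate 2 and was 2.05 without vestibular replicate 1. The ratio of Tbx18 to Tbx15 was 1.81 and 7.75 in the vestibular pair and 26.9 and 30.6 in the cochlear pair. Summed markers of fibrocytes and cartilage were also highest in vestibular library 2. The 9 fibrocyte and periotic mesenchyme genes summed to 3694 FPKM there and to between 868 and 1713 in the others, and the 10 cartilage genes to 4234 against 221 to 769. Among the fibrocyte genes, Epyc and Tgfbi instead had their highest values in the cochlear libraries. Slc7a11 was also highest in cochlear library 2, by a small margin over vestibular library 2. The 12 meningeal genes summed to 3791 against 501 to 684, but 3402 of this was Ptgds. Without Ptgds the other 11 summed to 389 in vestibular library 2, below the 407 and 544 of the cochlear pair. The meningeal genes Aldh1a2 (64.3 FPKM there, 298 and 399 in the cochlear pair) and Crabp2 were lowest in vestibular library 2. Gjb2, Gjb6, Zic1, Zic4 and Slc22a2 were instead highest there, with Zic1 at 19.9 FPKM against 3.20 in vestibular library 1. Dpp4 was highest in cochlear library 2. All 9 fibrocyte genes were tested, against 6 of 10 cartilage and 9 of 12 meningeal genes, and the meningeal transporter gene Slc22a6 was listed at 0 throughout. The part of these cells in the Tbx18 value was not tested.

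Tbx2 was higher in each cochlear library than in any vestibular one. This repressor gene, which is needed for the inner hair cell fate and is expressed in the cochlear epithelium, stood at 32.8 and 30.8 FPKM in the cochlear pair, and at 9.93 and 6.37 in the vestibular pair. The means of 31.8 ± 1.42 and 8.15 ± 2.51 FPKM (SD, n = 2 each) differ 3.901-fold, a log2 difference of -1.87 (SE 0.23, limma adjusted p = 0.112). It lay between -2.15 and -1.58 with any library left out. Tbx3, a close relative of Tbx2, had its high value in a single vestibular library. It stood at 19.7 FPKM in vestibular library 1, 2.86 in vestibular library 2, and 2.28 and 5.32 in the cochlear libraries. Without vestibular replicate 1 its log2 difference of 0.97 (SE 0.96) became -0.24. The ratio of Tbx2 to Tbx3 was 0.503 and 2.23 in the vestibular pair and 14.4 and 5.79 in the cochlear pair. Epithelial markers moved with Tbx2: both cochlear values lay above both vestibular values for 11 of 12 genes, against a background of 28.4%. All 12 were tested, and none was listed at 0 in any library. In limma 5 had an unadjusted p under 0.05, all with higher cochlear values (background 10.6%). The part of these cells was not tested.

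Tbx1, a gene linked to DiGeorge syndrome that acts in the otic vesicle and the periotic mesenchyme, was at similar mean levels in both groups. It stood at 33.6 and 12.2 FPKM in the vestibular pair and 19.7 and 22.4 in the cochlear pair, so the cochlear values lay within the vestibular ones. Its log2 difference was -0.040 (SE 0.52), 0.65 without vestibular replicate 2 and -0.73 without vestibular replicate 1. Tbx1 and Tbx3 were thus both highest in vestibular library 1, and Tbx15 and Tbx18 in vestibular library 2.

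**Figure D4:**
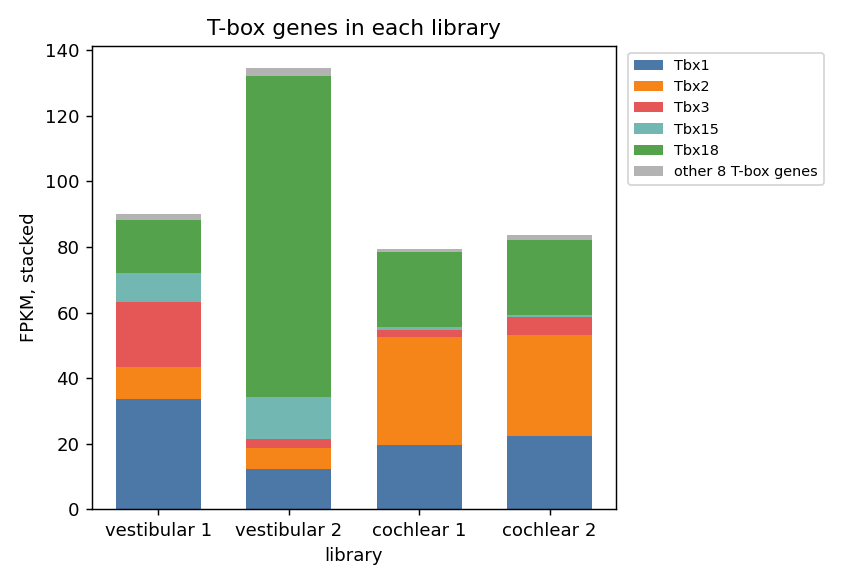
FPKM of the T-box genes stacked for each library, with the 8 other T-box genes together in grey. Tbx18 makes up 72.8% of the bar in vestibular library 2 and 17.9% to 28.8% in the others, and Tbx2 makes up 41.4% and 36.9% in the cochlear against 11.04% and 4.74% in the vestibular libraries.

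As a share of summed T-box FPKM, the leading gene was Tbx1 in vestibular library 1 (37.4%), Tbx18 in vestibular library 2 (72.8%) and Tbx2 in both cochlear libraries (41.4% and 36.9%). The T-box sum itself was 89.9 and 135 FPKM in the vestibular pair and 79.3 and 83.5 in the cochlear pair. The cochlear libraries thus resembled each other in their T-box makeup, and the vestibular libraries did not. Over all 26 tested genes, the median absolute log2 difference was 0.49 within the vestibular and 0.18 within the cochlear pair. Over all 13200 genes tested these medians were 0.22 and 0.17. Of the 26 genes, 13 had their highest value in vestibular library 2 and 3 in vestibular library 1. Cochlear library 2 was highest for 6 of them and cochlear library 1 for 4. How all genes tested divide in this way was not counted, so these numbers do not set the families apart from other genes.

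Several members lie next to each other in the genome, and not all of these neighbours shared a pattern. On chromosome 13, Foxq1, Foxf2 and Foxc1 follow each other with gaps of 64.8 and 175.2 kb and no other coding gene between them. Foxq1 and Foxf2 were both lowest in vestibular library 1, where Foxc1 was above its cochlear values. On chromosome 8, Foxf1 lies 28.03 kb before Foxc2, with 1 coding gene between them, and Foxl1 lies 9.0 kb after it. Foxc2 and Foxl1 both had higher values in each vestibular library, at levels far apart, and Foxf1 did not. Tbx4 lies 44.5 kb from Tbx2 on chromosome 11 and had 0.494 and 1.30 FPKM in the vestibular pair and 0.302 and 0.0983 in the cochlear pair, the opposite order to Tbx2. Tbx5 lies 147.9 kb from Tbx3 on chromosome 5 and was listed at 0 in all 4 libraries.

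**Figure D5:**
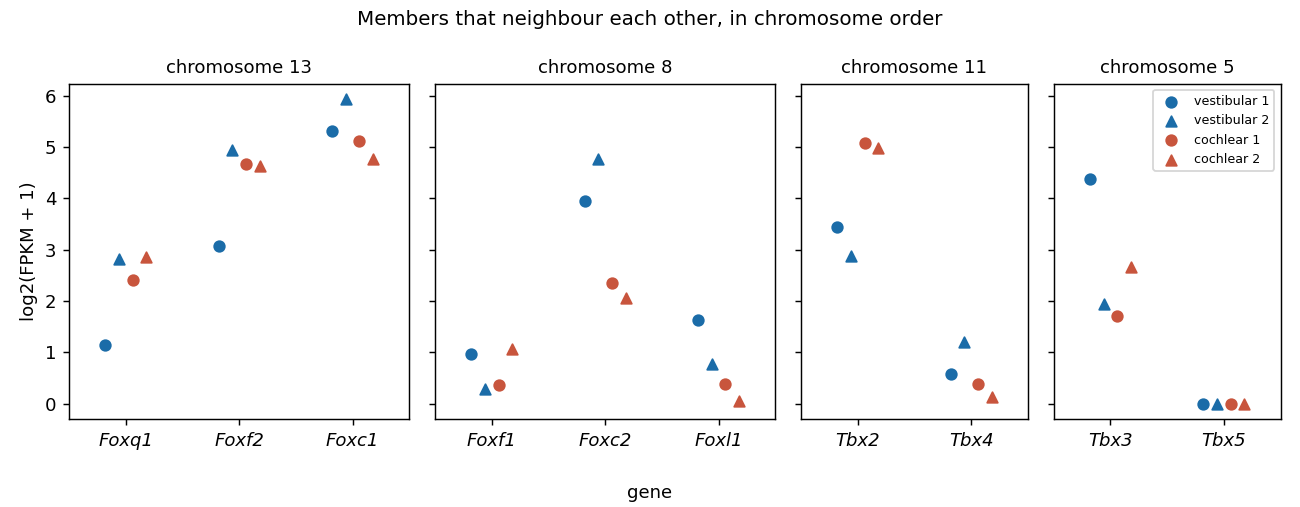
Log2(FPKM + 1) of members that neighbour each other on chromosomes 13, 8, 11 and 5, in chromosome order, with vestibular libraries in blue and cochlear libraries in red (circles for replicate 1, triangles for replicate 2). Foxc2 and Foxl1 have both blue points on top, Tbx2 has both red points on top while Tbx4 does not, and Tbx5 is at 0.

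Other members with at least 0.5 FPKM in some library were few. Tbx6, a gene of paraxial mesoderm, had 1.18 and 1.13 FPKM in the vestibular pair and 0.551 and 1.08 in the cochlear pair, just under the filter. Foxd3, a gene of neural crest, had 0.532 and 0.217 FPKM in the vestibular libraries and was listed at 0 in the cochlear ones. Foxl2, a gene of the ovary and eyelid, had 0.819 FPKM in cochlear library 2 and at most 0.136 elsewhere. Of the remaining members above 0, 12 stayed under 0.5 FPKM in every library. These include the regulatory T cell gene Foxp3, at most 0.104 FPKM. Tbx21, a gene of T helper and NK cells, was listed at 0, as were Foxb1, Foxb2, Foxd4, Foxe3, Foxn1 and Tbx22.

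Some members share transcribed sequence with other genes in GENCODE M21. Foxq1 overlaps the exons of A530084C06Rik on the other strand by 3200 bases, Tbx18 those of D030062O11Rik by 970 and Foxo1 those of Gm20402 by 674. The library kit keeps strand, but no source used here says whether the counting used it, so reads from such pairs may not be told apart. In the same build Tbx2 lies on chromosome 11 at 85832551 to 85841948 (plus strand) and Tbx18 on chromosome 9 at 87702800 to 87731260 (minus strand). Foxc2 lies on chromosome 8 at 121116171 to 121118895, and Foxd1 on chromosome 13 at 98354242 to 98359305, both on the plus strand with a single exon. Foxp2 (chromosome 6 at 14901349 to 15441977, plus strand) and Foxp1 (chromosome 6 at 98925338 to 99522721, minus strand) are the longest of these.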

How the data were processed

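Libraries were prepared from TRIzol-extracted RNA by the TruSeq stranded mRNA kit, per the labels' protocols. The authors deposited FPKM values, 1 per gene symbol and library, per the file headers. The submitters' processing notes name TopHat2 2.1.1, Bowtie2 2.2.8, SAMtools 0.1.18, Cuffdiff 2.2.1 and the mm10 build; no source used here gives the annotation, strand setting or scaling. FPKM depends on the transcript model, and without a known depth no counting error could be computed.

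Genes with a mean of at least 1 FPKM over the 4 samples (13200) were tested as log2(FPKM + 1), a scale that understates differences of low genes. The test was limma 3.58.1 under R 4.3.3 (eBayes with trend, 2-sided, Benjamini-Hochberg over all genes tested, threshold 0.05), tested on simulated data. A difference is vestibular minus cochlear.

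Tested members were named, lower ones where a library reached 0.5 FPKM, and up to 5 genes of a related list by smallest p. A few others (Foxs1, Foxe1, Foxi1, Foxp3, Mki67, Cdc20, Atp6v1b1, Mcidas, Sntn, Fendrr and members listed at 0) were chosen after their values were seen. Some results are not reported here. Members and lists were chosen with earlier results of these data known. Positions came from GENCODE M21 (GRCm38, the assembly of mm10), which matched all 57 members, and upstream sequence from RefSeq.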

Additional observations from a re-analysis of the deposited data

How the results depend on the processing

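Across 10 alternative analyses, a setting was changed or a library was left out. With all libraries kept, no forkhead or T-box gene passed limma's adjustment (smallest adjusted p 0.0799), and 6 to 8 had an unadjusted p under 0.05. The lowest count, 6 of 26, came with a replicate block, where 1887 of all 13200 genes had such a p. The highest, 8 of 46, came with no filter on low values, where 2977 of all 18257 genes did. The 4 genes called over all genes became 2 with no filter on low values and 0 with any library left out (0 to 0). The replicate numbers are shared by both groups, but the labels do not say that they pair samples, and deviations of same-numbered libraries correlated at 0.043; with a replicate block 0 genes were called in all and 6 members had an unadjusted p under 0.05. Among members the median difference was 0.28 with a mean of at least 5 FPKM required, and ran from -0.019 to 0.18 with a library left out. Direction held for 15 of 26 members in every alternative run for them. For the other 11 it changed only on leaving out a library: the log2 difference ran from -1.59 to 0.29 for Foxf2, -1.57 to 0.17 for Foxj1, -0.19 to 0.15 for Foxj2, -0.18 to 0.21 for Foxj3, -0.30 to 0.15 for Foxm1, -0.14 to 0.25 for Foxn2, -0.59 to 0.15 for Foxo6, -1.49 to 0.19 for Foxq1, -0.73 to 0.65 for Tbx1, -0.49 to 2.05 for Tbx18 and -0.24 to 2.19 for Tbx3. In such fits a lone sample is assumed to vary like the other group. Depth is unknown, and 2 samples a group limit what can be called.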

Other observations

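Forkhead and T-box repressors recruit Groucho (Tle) and other corepressors, and 11 genes of such proteins were tested. Limma passed 0 of them after adjustment, and 2 had an unadjusted p under 0.05, in opposite directions. That share is close to the background of 18.2% of all genes tested. Tle2 stood at 25.9 and 25.4 FPKM in the vestibular pair and at 16.3 and 15.5 in the cochlear pair (log2 difference 0.66, SE 0.10, limma adjusted p = 0.132). Tle3 stood at 19.6 and 21.8 FPKM in the vestibular pair and 27.4 and 26.5 in the cochlear pair (log2 difference -0.36, SE 0.11, limma adjusted p = 0.238). Ncor1 had 28.8 and 34.9 against 39.9 and 43.8 FPKM.

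Of 8 noncoding neighbours of family members, 4 were in the files and 1 was tested. Tbx3os2 had 4.21 FPKM in vestibular library 1, 0.658 in vestibular library 2, and 0.0807 and 0.0788 in the cochlear pair. It was therefore highest where Tbx3 was (log2 difference 1.44, SE 0.65, limma adjusted p = 0.343). Fendrr, next to Foxf1, did not exceed 0.108 FPKM. Of the T-box genes that the symbol rule leaves out, Mga was at 9.75 to 11.4 FPKM, T was listed at 0 in all 4 libraries, and Eomes and Tbr1 did not exceed 0.0546 FPKM.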
